A study of Mus musculus with 2 samples.

Results

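The opioid genes of the mouse are 4 that encode peptide precursors, Penk, Pdyn, Pnoc and Pomc, and 4 that encode receptors, Oprm1, Oprd1, Oprk1 and Oprl1. They were read from tables of RNA levels in newborn midbrain by matching the tables' gene identifiers, without their version, to the symbols of the GENCODE M21 annotation. All 8 of 8 genes were found among 43346 Ensembl genes in the tables. The samples were single midbrains of strain B6NCrl at postnatal day 0, 1 from pup 1 and 1 from pup 3, which form 1 group of 2 animals with no treatment named. Both pups carry the same donor identifier and their sex was not collected. RNA was extracted with the mirVana method, and spike-in RNAs were added. The labels give a starting quantity of 10 ng and a size range above 200 nt. For each pup 1 library was made, for which the labels link a SMARTer Ultra Low manual. Because there is 1 group, the values below compare genes and transcripts within a library and show how closely the pups match. A two-sided exact sign-flip test over 2 animals gives no p under 0.5, so no p is printed, and the SD over 2 pups is a coarse estimate of spread.

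Opioid peptides are cut from larger precursor proteins at pairs of basic residues and released from dense-core vesicles. Penk gives the enkephalins, Pdyn the dynorphins, Pomc beta-endorphin along with melanocortins and corticotropin, and Pnoc nociceptin, which acts on the receptor made from Oprl1 and not on the classical opioid receptors. All the receptors couple to inhibitory G proteins, which lower cyclic AMP, open inwardly rectifying potassium channels and close calcium channels of nerve endings. In the midbrain they are known for pain control in the periaqueductal grey and for setting the activity of dopamine neurons in the ventral tegmental area and substantia nigra.

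The precursors carry the peptides in different numbers, which can be read in their coding sequences. In the Penk coding sequence, codons for the core Tyr-Gly-Gly-Phe shared by classical opioid peptides occurred 7 times, followed by Met in 6 sites and by Leu in 1. In Pdyn the core occurred 3 times, always followed by Leu, and in Pomc it occurred 1 time, followed by Met. Pnoc held no Tyr-Gly-Gly-Phe and 1 Phe-Gly-Gly-Phe site, the start of nociceptin, followed by Thr. Every 1 of these 12 sites came directly after a pair of codons for Lys or Arg. Over 21584 mouse coding sequences, 71 (0.329%) held Tyr-Gly-Gly-Phe, and 3 of them held it after such a pair, which were Penk, Pdyn and Pomc. Phe-Gly-Gly-Phe was held by 107 (0.496%), in 2 of them after such a pair, and Pnoc was 1 of these. The motifs were read in frame in 1 coding sequence a gene. The sites below show the shared core, with the basic pair before it and 3 codons after it. They come from the GENCODE M21 transcripts on GRCm38, the same build as the mm10 of the tables, and each is printed 5′ to 3′ along the mRNA, with the 4 core codons in capitals. Site 1 of Penk is a Met form at chr4:4134328-4134354 on the minus strand, and site 6 is its Leu form at chr4:4133935-4133961. Site 1 of Pdyn lies at chr2:129688232-129688258 and that of Pnoc at chr14:65404872-65404898, both on the minus strand, while the Pomc site lies at chr12:3960367-3960393 on the plus strand.
Penk site 1: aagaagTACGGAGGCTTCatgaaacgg
Penk site 6: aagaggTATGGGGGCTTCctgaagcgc
Pdyn site 1: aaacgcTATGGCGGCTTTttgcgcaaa
Pomc site 1: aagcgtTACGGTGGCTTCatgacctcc
Pnoc site 1: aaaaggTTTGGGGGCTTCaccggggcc

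The tables give an expected count, the estimated number of reads assigned to a gene, and TPM, a level scaled to a fixed sum per library, which divides by transcript length and so allows levels of different genes to be compared. The library of pup 1 summed to 36934868 expected counts and that of pup 3 to 40769103, and the median protein-coding gene was at 4.52 TPM in pup 1 and 4.70 TPM in pup 3. The expected counts of all 8 opioid genes were whole numbers within 0.005 in both pups. Both pups had 8 of 9 midbrain regional factors at 1 TPM or above, the highest being Tfap2b at 148 ± 4.61 TPM, and the exception, En2, was at 0.81 ± 0.0990 TPM (SD, n = 2). All 6 dopamine neuron markers passed the same level, led by Th at 26.0 ± 5.31 TPM. Of the opioid genes, 7 of 8 reached 1 TPM in both pups, beside 62.1% of all protein-coding genes (13343 of 21474), and Oprd1 was the gene below. In bulk tissue a low level can come from few cells or from little RNA per cell, and these cannot be told apart.

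Penk, the enkephalin precursor, was the most abundant precursor. Its level was 56.78 TPM in pup 1 and 52.56 TPM in pup 3 (54.7 ± 2.98 TPM, SD, n = 2), from 1524 and 1503 counts. That placed it in the top 13.8% of protein-coding genes in pup 1 and the top 14.8% in pup 3. The gene, ENSMUSG00000045573, lies at chr4:4133531-4138819 on the minus strand, where 233 of its 1634 exonic bases overlap A830012C17Rik on the other strand. That neighbour had 9 counts in pup 1 and 6 in pup 3, far below those of Penk.

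Pnoc, the nociceptin precursor (ENSMUSG00000045731, chr14:65400673-65425472, minus strand), came next among precursors. It was at 36.56 TPM in pup 1 and 32.43 TPM in pup 3 (34.5 ± 2.92 TPM, n = 2), from 1740 and 1686 counts. Pdyn, the dynorphin precursor (ENSMUSG00000027400, chr2:129686565-129699844, minus strand), was at 18.92 TPM in pup 1 and 21.01 TPM in pup 3 (20.0 ± 1.48 TPM, n = 2), with 997 and 1210 counts. Pups differed in opposite directions for these genes, with Pnoc higher in pup 1 and Pdyn higher in pup 3, and in both pups Pnoc stayed above Pdyn.

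Pomc, whose neurons in the brain sit mainly in the arcuate nucleus of the hypothalamus, was the lowest precursor. It was at 6.62 TPM in pup 1 and 8.07 TPM in pup 3 (7.35 ± 1.03 TPM, n = 2), from 139 and 185 counts. The gene, ENSMUSG00000020660, lies at chr12:3954951-3960642 on the plus strand. Both pups placed it near the middle of protein-coding genes, at the top 45.4% in pup 1 and the top 43.4% in pup 3.

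Together the precursors summed to 118.88 TPM in pup 1 and 114.07 TPM in pup 3. Penk held 47.8% of that sum in pup 1 and 46.1% in pup 3, Pnoc held 30.8% and 28.4%, Pdyn 15.9% and 18.4%, and Pomc 5.57% and 7.07%. When each level is multiplied by the number of Tyr-Gly-Gly-Phe sites in the coding sequence, the lead of Penk widens. The product of sites and TPM was then 397 in pup 1 and 368 in pup 3 for Penk, 56.8 and 63.0 for Pdyn, and 6.62 and 8.07 for Pomc. Penk transcripts thus held 86.2% of these sites in pup 1 and 83.8% in pup 3 (85.0 ± 1.73%, n = 2), against 13.3 ± 1.44% for Pdyn and 1.64 ± 0.284% for Pomc. This product counts sites in RNA, using the gene's whole TPM. For Penk the sites were counted in the form Penk-201. Another form, Penk-202, held 26% of the TPM in pup 1 and 29.95% in pup 3. Its annotated coding sequence of 178 residues is incomplete at the 3′ end, and sites in it were not counted. The product measures neither translation nor how much of each precursor was cut into peptides.

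The receptors spread over a far wider range than the precursors. Oprl1, the nociceptin receptor gene (ENSMUSG00000027584, chr2:181715016-181720985, plus strand), was the highest of all 8 genes. It was at 79.89 TPM in pup 1 and 75.12 TPM in pup 3 (77.5 ± 3.37 TPM, n = 2), from 4742 and 4767 counts, in the top 10.2% of protein-coding genes in pup 1 and the top 10.9% in pup 3. Oprl1 alone held 90.9% of the summed receptor TPM in pup 1 and 89.8% in pup 3.

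Oprk1, the kappa receptor gene (ENSMUSG00000025905, chr1:5588466-5606131, plus strand), the main target of dynorphins, followed at a much lower level. It was at 5.28 TPM in pup 1 and 5.63 TPM in pup 3 (5.46 ± 0.247 TPM, n = 2), from 333 and 345 counts. Oprd1, the delta receptor gene (ENSMUSG00000050511, chr4:132110726-132144486, minus strand), whose product binds enkephalins, was the lowest gene, at 0.67 TPM in pup 1 and 0.56 TPM in pup 3 (0.615 ± 0.0778 TPM, n = 2). It was nevertheless counted, with 61 reads in pup 1 and 55 in pup 3.

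Oprm1, the mu receptor gene (ENSMUSG00000000766, chr10:6758506-7038198, plus strand), encodes the receptor for beta-endorphin and enkephalins and the target of morphine. It was at 2.07 TPM in pup 1 and 2.35 TPM in pup 3 (2.21 ± 0.198 TPM, n = 2), from 71 and 89 counts. The tables also hold a posterior mean estimate, which averages over the ways of assigning reads to transcripts, and this was higher, at 3.76 TPM in pup 1 and 3.94 TPM in pup 3. The TPM of Oprm1 lay below the deposited interval of that posterior mean, 2.70 to 4.93 TPM in pup 1 and 2.90 to 5.07 TPM in pup 3, as it did in both pups for 88 (0.66%) of 13343 protein-coding genes at 1 TPM or more. The level of Oprm1 is therefore given less firmly than those of the other members, whose TPM all lay inside their intervals. Oprm1 also shares 96 of 8037 exonic bases with Ipcef1 on the opposite strand, which had 123 counts in pup 1 and 159 in pup 3, more than Oprm1 itself, and the strand setting of the counting is not given in the sources used here. The coding sequences of the receptor genes were alike in 63.6% (Oprk1 and Oprl1) to 70.2% (Oprm1 and Oprd1) of aligned bases.

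**Figure D1:**
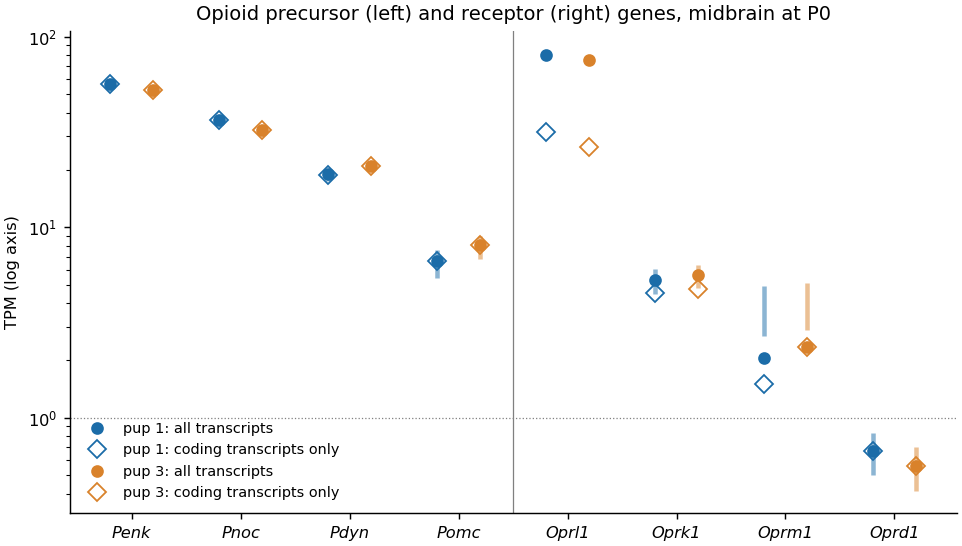
Levels of the 8 opioid genes in TPM on a log axis, precursors left of the line and receptors right of it, for pup 1 and pup 3. Filled circles are all transcripts, open diamonds coding transcripts only, vertical bars the deposited interval of the posterior mean, and the dotted line marks 1 TPM: Oprl1 is highest as circles (79.89 and 75.12) but lies below Penk and near Pnoc as diamonds (31.78 and 26.34), and the circles of Oprm1 lie under their bars.

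Levels of genes were compared as log2 ratios of TPM, with 0.1 added to each, within each library. A pair was called apart where the sign was shared by both pups, the mean was above 1 in size and above 3 SD, and neither pup had overlapping deposited intervals. By this measure 12 of 15 pairs stood apart. Among the receptors it was 5 of 6 pairs, among precursors and their receptors 5 of 5, and among the precursors 2 of 4. The 15 pairs were a chosen set that left out Pdyn with Pomc and Pnoc with Pomc. The count for precursors is therefore not over all their pairs and cannot be set against that for receptors. With the genes ranked by mean TPM as Oprl1, Penk, Pnoc, Pdyn, Pomc, Oprk1, Oprm1 and Oprd1, neighbours stood apart at 2 places, where Pdyn exceeded Pomc (mean log2 ratio 1.44 ± 0.0930) and Oprm1 exceeded Oprd1 (1.69 ± 0.281, n = 2 each). The step between Oprm1 and Oprd1 was no longer apart with a pseudocount of 1 (0.99), with counts not divided by length (0.43) or over coding transcripts (1.47 ± 0.592). Oprl1 over Penk, at 0.50 ± 0.0159, and Penk over Pnoc, at 0.66 ± 0.0433, had the same sign in both pups but fell under the size asked for. Pnoc over Pdyn was 0.95 in pup 1 and 0.62 in pup 3, also under it. The deposited intervals of Pomc and Oprk1 overlapped, as did those of Oprk1 and Oprm1.

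Each peptide could then be set against the receptor it is best known for. Penk exceeded Oprm1 by a log2 ratio of 4.57 ± 0.202 (3.76 with the posterior means) and Oprd1 by 6.26 ± 0.0786, both of which bind enkephalins. Pdyn exceeded Oprk1, its receptor, by 1.82 in pup 1 and 1.88 in pup 3, the closest match between the pups among these pairs (1.85 ± 0.0421). Pomc exceeded Oprm1 by 1.63 in pup 1 and 1.74 in pup 3 (1.68 ± 0.0755), a ratio that fell under 1 with the posterior mean level of Oprm1 (0.88). The nociceptin pair ran the other way. Pnoc over Oprl1 was -1.13 in pup 1 and -1.21 in pup 3 (-1.17 ± 0.0592), so this was the pair in which the receptor gene had the higher level. Summed over the families, precursors stood to receptors at a ratio of 1.35 in pup 1 and 1.36 in pup 3.

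The direction of the nociceptin pair depended on which Oprl1 transcripts were counted, a choice added after seeing the data. Over transcripts annotated as coding alone, Oprl1 was at 31.78 TPM in pup 1 and 26.34 TPM in pup 3 (29.1 ± 3.85 TPM, n = 2). The log2 ratio of Pnoc over Oprl1 was then 0.25 ± 0.0689, not apart, and Oprl1 ranked after Penk and Pnoc. The summed receptors were at 38.45 TPM in pup 1 and 34.02 TPM in pup 3 over coding transcripts, and the ratio of precursors to receptors was then 3.09 in pup 1 and 3.35 in pup 3. Oprl1 still exceeded Oprk1, Oprm1 and Oprd1 on coding transcripts.

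**Figure D2:**
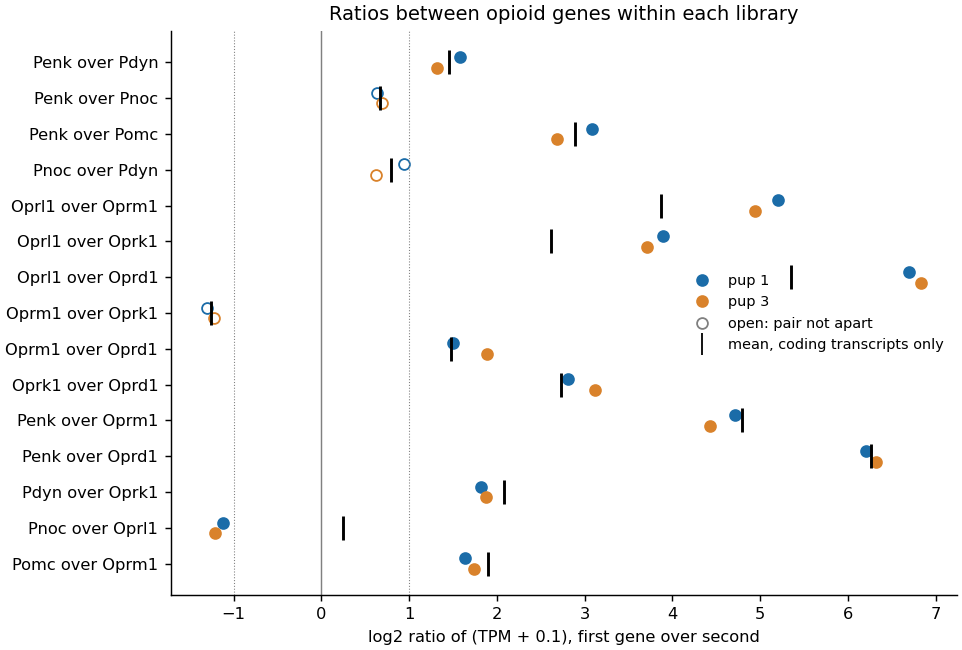
The log2 ratio of TPM plus 0.1, first gene over second, for 15 pairs of opioid genes in pup 1 and pup 3. Filled points are pairs called apart, open points are not, dotted lines mark 1 and -1, and black ticks are the mean over coding transcripts alone: the tick for Pnoc over Oprl1 is on the positive side (0.25) while the points are at -1.13 and -1.21.

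The transcript tables divide each gene's TPM among its annotated transcripts, 55 for the 8 genes, of which 54 had the same length in GENCODE M21. Pnoc, Pomc and Oprd1 had 1 transcript each. Pdyn was almost all Pdyn-201, which encodes the whole precursor of 248 residues, at 99.51% in pup 1 and 99.60% in pup 3. For Penk, the form Penk-201 for the whole precursor of 268 residues held 74.0% in pup 1 and 70.1% in pup 3 (72.0 ± 2.79%, n = 2). The remainder went to Penk-202, a form with another first exon whose annotated coding sequence is incomplete at its 3′ end. In both Penk and Pdyn the leading transcript was ahead by more than 10 percentage points and more than 3 SD of the gap.

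Oprl1 was spread over forms of different kinds. Of its 11 transcripts, 3 were at 10% or more in either pup, and coding forms together held 39.8% in pup 1 and 35.1% in pup 3 (37.4 ± 3.34%, n = 2). Oprl1-206, annotated as a processed transcript with no coding sequence, held 31.93% in pup 1 and 38.66% in pup 3. It has 2 exons and lacks at least 580 of the 1101 coding bases of Oprl1-201. These lie in 2 of the 4 exons of Oprl1-201, which it does not overlap, and bases missing from the other exons were not counted. Oprl1-209, annotated for nonsense-mediated decay, the route that destroys mRNAs with an early stop codon, held 24.88% in pup 1 and 23.63% in pup 3. Oprl1-201, which encodes the receptor of 367 residues, held 23.02% in pup 1 and 20.21% in pup 3, and all 3 transcripts for that protein together held 28.7% and 26.0%. Transcripts not annotated as coding thus held most of the TPM of Oprl1 in both pups, as they did in 869 of 9744 protein-coding genes with 2 or more transcripts at this level (8.92%). Among the 5 opioid genes with more than 1 transcript, Oprl1 was the only gene with such a share in both pups. The lead of Oprl1-206 over the next transcript was 7.05 points in pup 1 and 15.0 points in pup 3, which did not pass the rule for a leading transcript.

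The early stop codon of Oprl1-209 lies in an extra exon of 139 bases that Oprl1-201 does not have, at chr2:181717955-181718093 on the plus strand of GRCm38. Its bases up to the stop, chr2:181717955-181718018, are shown from the GENCODE M21 transcript, with the stop codon in capitals. The exon was compared with the exons of Oprl1-201 alone, and whether other Oprl1 transcripts hold it was not checked. The frame ends there after 95 residues, against 367 in Oprl1-201.
Oprl1-209 extra exon to stop codon: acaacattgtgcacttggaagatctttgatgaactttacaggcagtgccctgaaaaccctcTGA

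Oprk1 encoded a single protein in several mRNAs. Its 3 coding transcripts all encode 380 residues and held 85.2% in pup 1 and 84.7% in pup 3, with the rest in retained intron forms, of which Oprk1-205 was at 13.71% in pup 1 and 14.55% in pup 3. Oprk1-201 led in both pups, at 34.21% in pup 1 and 42.46% in pup 3. Oprk1-204, which differs in length and not in protein, was at 30.23% in pup 1 and 20.77% in pup 3, so the gap between them was 3.98 points in pup 1 and 21.0 points in pup 3. Oprk1-203 was at 20.62% in pup 1 and 21.49% in pup 3.

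Oprm1 is known for many splice forms that differ mainly in the receptor's C-terminal tail, and here its few reads were shared among 31 annotated transcripts. Of these, 18 were at 0 in both pups and 6 reached 10% in either pup. By TPM, the form with the largest share was not the same in the 2 pups. It was Oprm1-215, which encodes 398 residues, in pup 1 (21.21%, against 9.89% in pup 3), while in pup 3 it was Oprm1-229, annotated with a reading frame of 104 residues (16.90% in pup 1 and 24.52% in pup 3). The forms Oprm1-214, for 391 residues, and Oprm1-230, for 409, were at 12.55% and 12.24% in pup 1 and at 21.87% and 16.38% in pup 3. Oprm1-224, annotated for nonsense-mediated decay, was at 16.26% in pup 1 and 0% in pup 3, and Oprm1-207 was at 0% in pup 1 and 11.88% in pup 3. By the posterior means, Oprm1-229 had the largest share in both pups, at 11.30% in pup 1 and 13.21% in pup 3. Oprm1-215 was then at 6.51% in pup 1 and 4.37% in pup 3, and Oprm1-224 at 8.90% and 3.90%. Each of these shares rests on a part of 71 counts in pup 1 or 89 counts in pup 3.

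Grouped more coarsely, the shares of Oprm1 by first exon still moved between the pups, while that of the 398-residue receptor moved less. All 3 transcripts for this receptor together held 21.2% in pup 1 and 17.0% in pup 3, from 23.05 and 19 counts. By the posterior means they held 10.8% in pup 1 and 9.39% in pup 3. The 9 transcripts that begin at the distal, upstream first exon held 43.3% in pup 1 and 17.0% in pup 3, and the 22 that begin at the proximal first exon held 56.7% in pup 1 and 83.0% in pup 3. By the posterior mean estimates the distal share was 30.2% in pup 1 and 21.6% in pup 3. Processed transcripts without a coding sequence, at 0 by TPM in both pups, held 19.0% in pup 1 and 18.5% in pup 3 by the posterior means. Forms annotated for nonsense-mediated decay held 28.3% in pup 1 and 20.1% in pup 3 by the posterior means, against 27.9% in pup 1 and 0% in pup 3 by TPM.

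**Figure D3:**
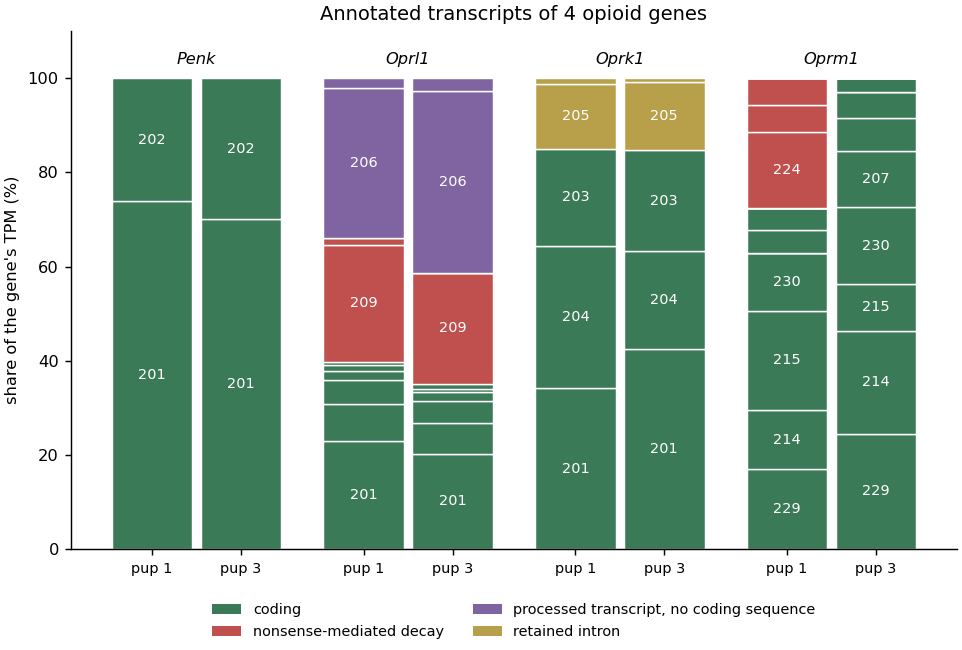
Share of a gene's TPM held by each annotated transcript in pup 1 and pup 3 for Penk, Oprl1, Oprk1 and Oprm1, in percent, with transcripts of 10% or more in either pup numbered where they fill a visible block. Colour gives the annotated kind: Oprl1 is mostly processed transcript (206) and nonsense-mediated decay (209) forms, Oprk1 is mostly coding, and the blocks of Oprm1 differ between the pups.

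The genes that make, break down and transmit opioid peptides were read from lists, each described by how many members reached 1 TPM in both pups and by its median. Of 39 such genes 38 reached that level, beside 62.1% of protein-coding genes. The exception was Kcnj5, a subunit of the potassium channels that the receptors open, at 0.94 TPM in pup 1 and 1.16 TPM in pup 3. The lists contain widely expressed genes, so their counts say nothing particular about opioid signalling.

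The enzymes and helpers that process propeptides were abundant. All 7 of 7 reached 1 TPM, and the list's median TPM was 121 in pup 1 and 117 in pup 3, while that of protein-coding genes was 4.52 in pup 1 and 4.70 in pup 3. Cpe, the carboxypeptidase that trims basic residues after cleavage, was highest at 1245 ± 38.5 TPM, followed by Pcsk1n, which encodes an inhibitor of the convertase PC1/3, at 466 ± 16.3 TPM (n = 2 each). The lowest was Pcsk1, the gene of that convertase, at 4.46 TPM in pup 1 and 3.76 TPM in pup 3. The second convertase gene, Pcsk2, was higher, at 30.29 TPM in pup 1 and 32.57 TPM in pup 3.

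Peptidases that can degrade opioid peptides reached 1 TPM in 6 of 6 cases, and their median TPM was 23.7 in pup 1 and 24.9 in pup 3. Npepps, the puromycin-sensitive aminopeptidase, was at 88.2 ± 6.81 TPM and Dpp3, which cleaves enkephalins, at 74.2 ± 5.09 TPM. Mme, the membrane peptidase neprilysin also called enkephalinase, was lowest at 1.91 TPM in pup 1 and 1.64 TPM in pup 3.

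On the receptor side, the alpha subunits of inhibitory G proteins were above Oprk1, Oprm1 and Oprd1 in TPM, while Oprl1, at 77.5 ± 3.37 TPM, lay at the low end of their range. All 5 of 5 reached 1 TPM, with median TPM values of 110 in pup 1 and 112 in pup 3. The range ran over Gnao1 at 259.5 ± 6.04 TPM, Gnai2 at 223 ± 2.59 TPM and, at the low end, Gnai3 at 77.1 ± 3.73 TPM. The effector channels and cyclases were lower, with 7 of 8 at that level and median TPM values of 5.90 in pup 1 and 5.41 in pup 3. Their highest members were Cacna1a, a calcium channel subunit, at 10.7 ± 3.10 TPM and Adcy1, an adenylyl cyclase, at 10.6 ± 0.219 TPM.

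Kinases, arrestins and RGS proteins, which end receptor signalling, reached 1 TPM in 10 of 10 cases, and their median TPM was 19.8 in pup 1 and 21.4 in pup 3. Rgs4, which speeds the shut-off of inhibitory G proteins, was highest at 60.8 ± 2.02 TPM, next came Rgs17 at 49.8 ± 0.0849 TPM, and Grk5, a receptor kinase, was lowest at 1.09 ± 0.0354 TPM. Among other binders, Ogfr, the opioid growth factor receptor, was at 70.0 ± 0.113 TPM. Ackr3, an atypical chemokine receptor that also takes up opioid peptides, was at 4.34 ± 0.686 TPM.

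**Figure D4:**
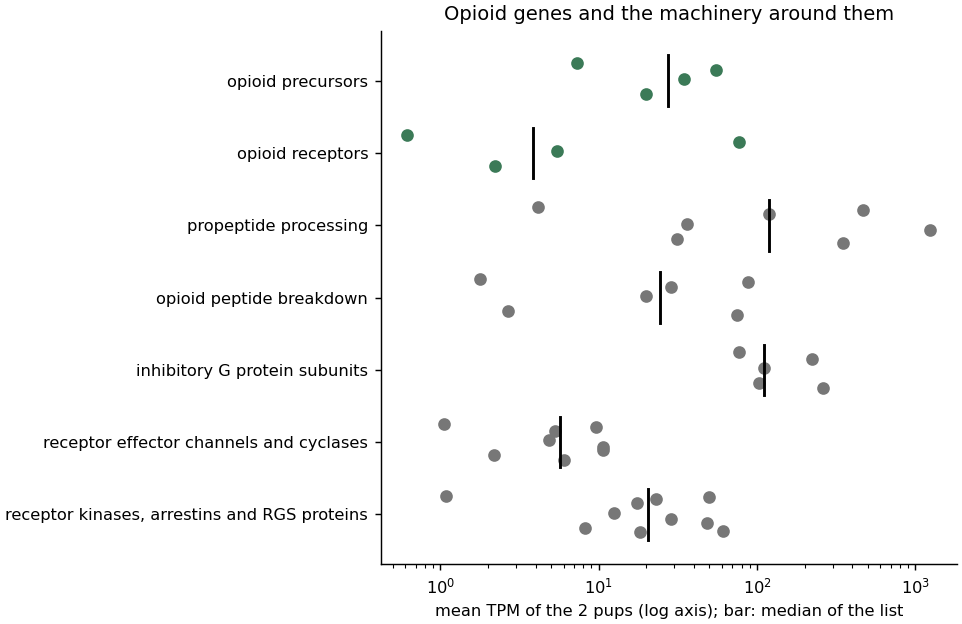
Mean TPM of the 2 pups on a log axis for the opioid precursors and receptors (green) and for 5 lists of genes around them (grey), 1 point a gene and a vertical bar at each list's median. Propeptide processing and inhibitory G protein lists lie highest, with Cpe at 1245 TPM, and Oprd1 at 0.615 TPM is the lowest point drawn.

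The pups were compared by the log2 ratio of counts at equal depth, pup 1 over pup 3, with an exact 95% binomial interval that covers counting error only. With 1 library for each animal, these differences have no replicate check. Of the 6 opioid genes with mean counts from 100 upward, 0 differed by more than 1 on the log2 scale, and neither did Oprm1 or Oprd1, which are below that count. Over all genes at that depth the share past 1 was 0.293% (39 of 13318), and from a mean count of 10 upward, where all 8 opioid genes could be read, it was 3.04% (542 of 17831), with 0 of 8 opioid genes among them.

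Some smaller differences had counting intervals that left out 0, beside a median absolute difference of 0.10 between the pups over all 13318 genes. Penk was higher in pup 1 by 0.16 (interval 0.0588 to 0.27), Pnoc by 0.19 (0.0905 to 0.29) and Oprl1 by 0.13 (0.0766 to 0.19). Pdyn was lower in pup 1, at -0.14 (-0.26 to -0.0147). For Pomc the difference was -0.27 (-0.60 to 0.0553), for Oprm1 -0.18 (-0.65 to 0.28), for Oprd1 0.29 (-0.26 to 0.84) and for Oprk1 0.09 (-0.13 to 0.31), all with intervals that include 0. The sign for Oprk1 turned when TPM was used in place of counts (-0.09). Over these depths a difference as large as 1 on the log2 scale lay outside the interval of each of the 8 genes.

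Part of a list of 15 hypothalamic genes differed between the pups. Of its 13 members with mean counts from 100 upward, 6 were past 1, all lower in pup 1. Over all genes at that depth the share past 1 was 0.293% (39 of 13318). The list was chosen with earlier results of these data known. Oxt, the oxytocin gene, was at 4.28 TPM in pup 1 and 20.39 TPM in pup 3 (log2 ratio -2.24), Six6, a transcription factor, at 1.02 and 3.27 TPM (-1.67), and Hcrt, the orexin gene, at 4.88 and 14.31 TPM (-1.54). Avp, the vasopressin gene, was at 123.9 TPM in pup 1 and 269.7 TPM in pup 3 (-1.11), Pmch, for melanin-concentrating hormone, at 28.36 and 58.71 TPM (-1.03), and Sim1, a transcription factor, at 0.45 and 0.92 TPM (-1.02). Trh (-0.88), Tbx3 (-0.87), Otp (-0.86) and Nkx2-1 (-0.51) were also lower in pup 1, with intervals that left out 0 but ratios not past 1. The remaining well-counted members, Npy, Gal and Cartpt, did not share this difference. Npy was at 110.8 TPM in pup 1 and 113.3 TPM in pup 3 (-0.02), Gal at 27.44 and 26.61 TPM (0.06) and Cartpt at 23.32 and 19.77 TPM (0.25). Agrp and Ghrh had mean counts below 100. Agrp was at 2.70 TPM in pup 1 and 6.49 TPM in pup 3 (-1.23, interval -1.82 to -0.66). Ghrh was at 4.24 and 6.47 TPM (-0.58, interval -1.18 to 0.0081). The list summed to 347 TPM in pup 1 and 568 TPM in pup 3, with 14 of 15 members reaching 1 TPM in each pup.

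Of the 8 opioid genes, Pomc, Pdyn and Oprm1 had the same sign as the 6 genes past 1, with smaller ratios. Penk, Pnoc, Oprl1, Oprk1 and Oprd1 had the other sign, as Gal and Cartpt did. The intervals of Pomc, Oprm1, Oprk1 and Oprd1 included 0. The part of the hypothalamic genes in the level of Pomc or in its difference between pups was not tested. For the pituitary, the other well-known site of Pomc, 1 of 9 markers, Pitx1 at 2.05 ± 0.311 TPM, reached 1 TPM in each pup. Prl, Fshb and Pou1f1, which define hormone cells of the anterior pituitary, were at 0 in both pups, and Tbx19, the factor of its Pomc cells, was at 0.08 TPM in pup 1 and 0.22 TPM in pup 3.

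Markers of other regions and cell types that express opioid genes were also present. All 8 striatal markers reached 1 TPM in each pup and summed to 109 TPM in pup 1 and 122 TPM in pup 3, the highest being Foxp1 at 59.9 ± 3.68 TPM. Rgs9 is on this list and also on that of the RGS proteins. Of 5 genes for the habenula and inputs of the interpeduncular nucleus, 4 reached that level, led by Pou4f1 at 35.6 ± 1.36 TPM. Among GABA markers Gad1 was at 140 ± 7.10 TPM (3 of 3 reached 1 TPM), and among glutamate markers Slc17a6 was at 124 ± 1.85 TPM (1 of 3). Many of these genes are also expressed within the midbrain. Non-neuronal cells were represented too, with 5 of 5 microglia markers (highest C1qb, 58.2 ± 4.90 TPM), 5 of 5 for meninges and fibroblasts (Col3a1, 85.4 ± 2.14 TPM), 3 of 3 for endothelium (Cldn5, 108 ± 13.3 TPM) and 4 of 5 for the oligodendrocyte lineage (Mbp, 20.6 ± 0.643 TPM) at 1 TPM or more. At mean counts from 100 upward, no gene of these lists, or of those for dopamine neurons and astrocytes, was past 1 between the pups. Below that depth, Gpr151 of the habenula list was at 0.42 TPM in pup 1 and 1.52 TPM in pup 3, from 15 and 59 counts. Its log2 ratio was -1.83 (interval -2.76 to -0.997). The lists differed in direction by the median log2 ratio of their members with mean counts from 100 upward. This median was -0.23 for the striatal list and -0.04 for the habenula list, while several lists were somewhat higher in pup 1. The astrocyte list, led by Aldoc at 226 ± 49.7 TPM, summed to 523 TPM in pup 1 and 429 TPM in pup 3, with a median log2 ratio of 0.28. The oligodendrocyte list stood at 0.26, with summed TPM of 55.9 in pup 1 and 49.4 in pup 3, and the endothelium list at 0.24, with 137 in pup 1 and 116 in pup 3. Among dopamine markers, Slc6a3, the dopamine transporter gene, had a ratio of 0.78 and Th 0.43, while the median of that list was 0.05. Nr4a2 had the other sign, at -0.36 (interval -0.48 to -0.23), as did Pitx3, at -0.11 (-0.62 to 0.39). The part of these cell types in the differences of the opioid genes was not tested.

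**Figure D5:**
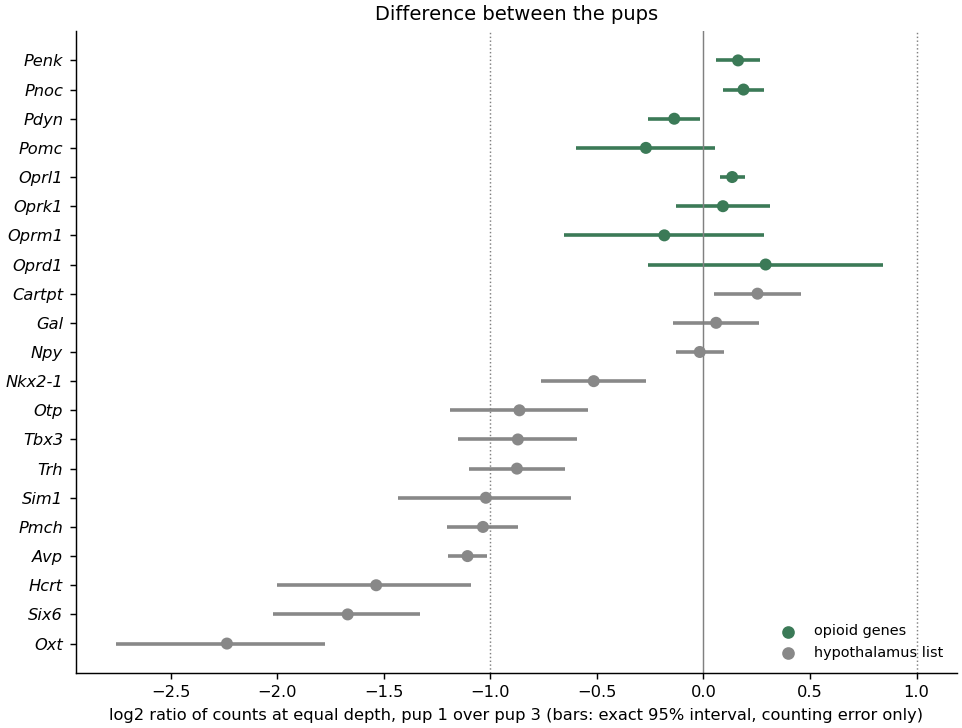
The log2 ratio of counts at equal depth, pup 1 over pup 3, for the 8 opioid genes (green) and the 13 testable hypothalamic genes (grey), with bars for the exact 95% interval of counting error and dotted lines at 1 and -1. The opioid genes lie between -0.27 and 0.29, while 6 hypothalamic genes lie beyond -1, Oxt farthest at -2.24.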

How the data were processed

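The authors' tables, 1 of genes and 1 of transcripts for each pup, were made from transcriptome alignments on build mm10 with annotation M4, per the deposited text record. The program, like the strand setting of counting, is not given in the sources used here. Column names match those of RSEM output. Expected counts deposited by the authors estimate reads per gene, and the deposited TPM values are scaled over all features after division by effective length. The deposited posterior mean TPM has interval bounds, treated as a signal whose level is not stated. The authors' transcript tables give the percent of a gene's TPM on each transcript.

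Symbols and coordinates came from GENCODE M21 (GRCm38), matched for 42462 of 43346 Ensembl identifiers. Rows without one held 0.000641% of counts in pup 1 and 0.000867% in pup 3. The members and lists were chosen with earlier results of these data known. Named were all 8 opioid genes, from each pathway list the highest 2 and the lowest member, from each marker list the highest member and any past 1 between pups, and transcripts at 10% or more. Pcsk2, En2, Kcnj5, Npy, Gal, Cartpt, Trh, Tbx3, Otp, Nkx2-1, Slc6a3, Nr4a2, Pitx3 and the pituitary genes were named after their values were seen. So were Agrp, Ghrh and Gpr151. A listed gene is not reported here. Ratios of TPM used a pseudocount of 0.1. Rounded to whole numbers, the expected counts entered edgeR 4.0.16 (TMM factors and a biological coefficient of variation of 9.28% over 17852 genes) and DESeq2 1.42.0 (size factors). Other software was matplotlib 3.10.9, Biopython 1.88, SciPy 1.17.1, pandas 2.3.3, numpy 2.4.6, Python 3.11.15 and R 4.3.3. The comparison of pups was tested on simulated data for 13239 genes, of which 28 of 67 with a 2-fold change, 67 of 67 with a 3-fold change, 66 of 66 with a 4-fold change and 0 of 13039 with none went past 1. Intervals cover counting error only, with 1 library for each animal. No molecular identifiers are named, and the intervals do not allow for reads that repeat a molecule. Alternatives were the pseudocount, the posterior mean, counts not divided by length, scaling, count filters, leaving out each pup, and coding transcripts alone, the last chosen after seeing the data.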

Additional observations from a re-analysis of the deposited data

How the results depend on the processing

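No paired analysis was possible because the samples form 1 group. Over the alternatives to 15 pair ratios, 96 of 105 values kept their direction and their side of the rule. Counts not divided by length gave log2 ratios of 0.46 for Penk over Pdyn, -0.18 for Penk over Pnoc (direction turned), -2.04 for Oprm1 over Oprk1 (then apart), 0.43 for Oprm1 over Oprd1 and 0.98 for Pomc over Oprm1, which by construction compares genes of unequal length. Oprm1 over Oprd1 was 0.99 with a pseudocount of 1 and 1.47 with coding transcripts alone, and Pomc over Oprm1 was 0.88 with posterior means, and none of these was then apart. Pnoc over Oprl1 turned to 0.25 with coding transcripts alone, which removes the forms of Oprl1 without an annotated coding sequence and those for nonsense-mediated decay. The summed level of the 8 genes was 202 TPM, 242 TPM when rescaled over nuclear protein-coding genes and 153 TPM over coding transcripts. Without 1 or the other pup it ran over 198 to 207 TPM. Between 10 and 12 pairs stood apart under every alternative run, 7 of 8 genes reached 1 TPM, and 0 opioid genes were past 1 between the pups. Depth limits Oprm1 and Oprd1, with under 100 counts in each pup, and most of all the transcript shares of Oprm1.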
